A study of Mus musculus with 48 samples.

Results

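The untreated time course consists of 12 tumors, 3 at each of 4 times, out of 48 tumors in the whole series and 30 in its first experiment. They were taken by the sample titles, which mark them as controls at 0 h, at day 0, at day 1 and at day 3, and those titled day 0 are read here as the 6 h tumors, the only time left between 0 h and day 1. All 12 came from WT C57BL/6J mice that were bought at 4 weeks of age and kept for 2 weeks. Each mouse carried 1 tumor of B16-D5, a line derived from the mouse melanoma B16 that spreads readily and draws little immune attack, grown from cells put under the skin of the flank 8 days before day 0. These mice received no injection of antibody. The other 18 tumors of the experiment came from like mice given control IgG or anti-PD-1 and were collected at 6 h, day 1 and day 3, and they serve here for the spread between tumors and for a comparison of the time steps. The comparison asks how an untreated tumor changes over the 3 days in which the treated tumors were studied. Other label fields of the 12 samples conflict with the titles. The treatment field matches the title in 8, the time field in 5 and both in 5. Both fields match in every 0 h tumor. Neither matches in any day 1 tumor, and the time field matches in no day 3 tumor. That the day 1 tumors are untreated and of day 1 thus rests on the titles alone. The sample prefix in the title of 0 h replicate 1 is also that of an IgG day 1 tumor, whose library differs from it. The hour of the day of collection was not given in the sources used here.

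A subcutaneous melanoma is a mixture of pigmented tumor cells, vessels, fibroblasts and leukocytes, and its edge borders on skin, fat and a thin sheet of muscle. As a tumor grows, cells far from vessels induce hypoxia genes such as Vegfa through the transcription factor HIF-1, and lymphocytes that enter release IFN-γ, which induces Irf1 and PD-L1. Many tissues also run a daily clock, in which the activators CLOCK or NPAS2 with BMAL1 (gene Arntl) bind E-boxes of the Per and Cry repressor genes, of the Nr1d genes and of the PAR-bZIP factors Dbp, Tef and Hlf, which in turn act on D-boxes. In bulk tissue, fewer cells of a type and less RNA per cell cannot be told apart.

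The counts on genes per untreated library ranged from 30148778 to 47687872, so that the limit of 3 counts that a count of 0 allows was between 0.0688 and 0.0941 CPM. CPM is the count scaled to the library's TMM-adjusted total, and limits of this kind cover counting error only. Nothing states whether cells of 1 culture were injected into all mice, so p-values measure the spread between these tumors. The melanocyte enzyme gene Dct had between 4334 and 6479 CPM in all 12 tumors and the proliferation gene Mki67 between 997 and 1761 CPM, so all libraries carried the RNA of pigmented, dividing cells. The library of 0 h replicate 3 stood apart. Its median Spearman correlation with the other untreated libraries was 0.892, against 0.928 to 0.942 for the others, and its Pmel level, 1084 CPM, was the lowest of the 12, below a range of 1474 to 3617 CPM. Counts and list medians against 0 h are therefore also given without it, as are single genes where it moves the value by much.

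In edgeR's quasi-likelihood test with Benjamini-Hochberg adjustment over 26848 genes, 0 genes (0%) passed an adjusted p of 0.05 in any of the 6 pairwise comparisons or in the test of any change over the 4 times. The lowest adjusted p was 0.064 for any change and 0.368 in a pairwise comparison. At an unadjusted p under 0.05, 1450 genes (5.4% of those tested) differed over the 4 times. At 6 h, 299 genes (1.11%) were higher and 1560 (5.81%) lower than at 0 h. At day 1, 692 (2.58%) were higher and 1147 (4.27%) lower than at 0 h, and at day 3, 590 (2.2%) were higher and 1260 (4.69%) lower. The later steps held fewer such genes. From 6 h to day 1, 558 (2.08%) were higher and 282 (1.05%) lower. From 6 h to day 3, 540 (2.01%) were higher and 163 (0.607%) lower, and from day 1 to day 3, 315 (1.17%) were higher and 416 (1.55%) lower. These unadjusted counts serve as the background for each gene list below, and none of the differences in the text passed the adjusted threshold in edgeR. The 3 comparisons against 0 h share the same 0 h tumors, and the steps that meet at day 1 share the day 1 tumors.

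The excess of lower genes after 0 h was not seen without 0 h replicate 3 at day 1 and day 3 and was small at 6 h. Over all 26848 genes tested, 41.6% had their highest 0 h value in that library. Of the 1560 genes lower at 6 h, 93.8% had their highest 0 h value in replicate 3, and the shares were 90.8% of the 1147 genes at day 1 and 94.7% of the 1260 genes at day 3. With 0 h replicate 1 left out instead, 857 genes were higher and 2306 lower at 6 h, 640 and 1575 at day 1, and 834 and 2050 at day 3. Without replicate 3, 202 genes were higher and 243 lower at 6 h, 528 higher and 531 lower at day 1, and 399 higher and 227 lower at day 3. Fits with a library left out were filtered anew and tested more genes, 30536 without 0 h replicate 1 and 30122 without 0 h replicate 3. At day 3 the excess was also absent without day 3 replicate 1, with 864 genes higher and 801 lower, while 316 were higher and 1577 lower without 0 h replicate 2 and 334 higher and 1289 lower without day 3 replicate 4. At day 1 there were 582 higher and 704 lower without day 1 replicate 6. At 6 h there were 579 higher and 1946 lower without 6 h replicate 1, and 285 higher and 964 lower without 6 h replicate 4. DESeq2, which models the spread in another way, called 215 genes at 6 h, of which 2 were higher, 240 at day 1, of which 12 were higher, and 217 at day 3, of which 8 were higher. It called 18 genes from 6 h to day 1, 18 from 6 h to day 3 and 9 from day 1 to day 3, and 14, 17 and 9 of these had log2 fold changes beyond 10. The level of sensory receptor genes, a measure of background, was also tried as a covariate. Adding it to the fit gave 287 higher and 437 lower genes from 6 h to day 1, 206 higher and 473 lower from 6 h to day 3, and 263 higher and 679 lower from day 1 to day 3, with 0 past the adjusted threshold in each.

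**Figure D1:**
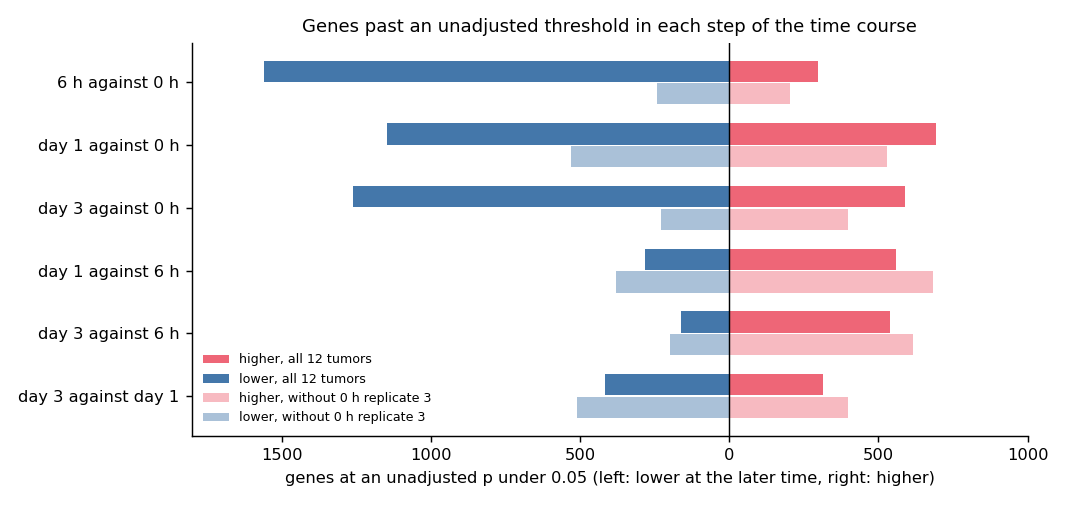
Bars give the number of genes at an unadjusted p under 0.05 in edgeR for the 6 comparisons of untreated tumors, to the left for genes lower at the later time and to the right for genes higher, with all 12 tumors (dark) and without 0 h replicate 3 (pale). The 1560 genes lower at 6 h than at 0 h, of 26848 tested, become 243 of 30122 tested without that library.

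By list median, skin genes were lower after 0 h than at 0 h. The size was set in large part by 0 h replicate 3. Without that library, few of them differed at 6 h at an unadjusted p under 0.05. The keratinocyte and hair follicle list holds keratins, cornified envelope genes and the epidermal regulator Trp63. All 19 members were lower at 6 h, with a median log2 fold change of -6.38 beside -0.02 over all genes, and 19 had an unadjusted p under 0.05. At day 1 the median was -8.07 (17 of 19 at unadjusted p) and at day 3 -8.16 (18 of 19). The basal keratin gene Krt14 had 1.15, 19 and 481 CPM in 0 h replicates 1, 2 and 3, between 0.298 and 0.659 CPM at 6 h, between 0 and 0.199 CPM at day 1 and between 0.125 and 0.33 CPM at day 3. All later tumors lay below all 0 h tumors, but the 0 h tumors themselves spanned 1.15 to 481 CPM. Its log2 fold change was -8.37 at 6 h (SE 2.46, adjusted p = 0.395 in edgeR) and -4.28 without 0 h replicate 3.

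Further skin genes were highest in 0 h replicate 3. Sbsn, which encodes the cornified layer protein suprabasin, had 3.65, 42.1 and 504 CPM at 0 h and between 1.4 and 6.06 CPM in the 9 later tumors, which overlap with 0 h replicate 1. Its log2 fold change was -6.14 at day 3 (SE 1.28, adjusted p = 0.368 in edgeR, with a range of 4.3e-07 to 1 over the alternatives) and -3.10 without 0 h replicate 3. Col17a1, the hemidesmosomal collagen of basal keratinocytes, had 3.37, 29.8 and 409 CPM at 0 h and at most 4.74 CPM later. Sox9, a factor of hair follicle stem cells that tumor cells also express, had 20.5, 30.4 and 354 CPM at 0 h and between 15.4 and 25.4 CPM in all later tumors. For Sox9 the log2 fold change at 6 h went from -2.90 (SE 0.62, adjusted p = 0.377 in edgeR and 0.00175 in DESeq2, with a range of 1.08e-05 to 1 over the alternatives) to -0.46 without that library. Over the whole list, the summed level ran from 32.4 to 6568 CPM at 0 h, from 22.7 to 43.9 CPM at 6 h, from 13.2 to 15.5 CPM at day 1 and from 8.64 to 14.3 CPM at day 3. Without 0 h replicate 3 the median was -2.91 at 6 h with 1 of 19 genes at unadjusted p, -4.43 at day 1 with 12 and -3.87 at day 3 with 11.

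Skeletal muscle genes were high in every 0 h tumor and lowest at day 1. The list of 20 holds the contractile and calcium-handling genes of fast fibers. Ttn, which encodes the sarcomere protein titin, had 1376, 4225 and 8011 CPM at 0 h, 2189, 41.4 and 177 CPM at 6 h, 4.07, 45.2 and 9.86 CPM at day 1, and 1087, 20.8 and 30 CPM at day 3. The day 1 tumors lay below all 0 h tumors, while 6 h replicate 1 and day 3 replicate 1 lay within or near the 0 h range. The log2 fold change of Ttn at day 1 was -7.85 (SE 2.72, adjusted p = 0.516 in edgeR, with a range of 0.000938 to 1 over the alternatives) and -7.10 without 0 h replicate 3. Casq1, the calcium store protein of fast fibers, had 20.2, 70.4 and 144 CPM at 0 h and 7.66, 13.3 and 10.5 CPM at day 1, a log2 fold change of -2.90 (SE 0.71, adjusted p = 0.411 in edgeR, with a range of 5.19e-05 to 1 over the alternatives) and of -2.06 without 0 h replicate 3. The list's median at day 1 was -7.14 with 20 of 20 genes lower at unadjusted p, and -6.35 with 20 of 20 without 0 h replicate 3. At 6 h it was -2.65 with 3 genes at unadjusted p, and at day 3 -3.70 with 6. These were -1.88 with 0 and -3.14 with 3 when 0 h replicate 3 was left out. The value of 3.33 from day 1 to day 3 rested on day 3 replicate 1 and was -0.17 without it. The summed level ran from 2928 to 18215 CPM at 0 h, from 224 to 4114 at 6 h, from 103 to 192 at day 1 and from 131 to 2312 at day 3. At day 1, Pvalb and Tnni2 were at 0 in replicates 1 and 6, and Acta1, Myl1 and Tnnc2 were at 0 in replicate 6.

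Fat and connective tissue genes moved in another order. The adipocyte list (13 of its 14 members tested) had a median of -3.46 at 6 h with 9 genes at unadjusted p, and -1.14 with 0 such genes without 0 h replicate 3. It was then 2.38 from 6 h to day 1, with 7 of 13 genes higher at unadjusted p, and 2.30 from 6 h to day 3, with 6, steps that do not involve the 0 h tumors. The list level was 0.99, 1.88 and 1.40 at 6 h, 3.86, 3.61 and 1.61 at day 1, and 1.64, 3.32 and 4.20 at day 3. By this level the tumors overlap in both steps. Plin1, the lipid droplet coat protein perilipin, had 1.51, 5.54 and 76.7 CPM at 0 h, 0.565, 2.68 and 1.8 CPM at 6 h, 16.9, 8.96 and 2.94 CPM at day 1, and 1.03, 8.74 and 15.3 CPM at day 3. The day 1 tumors all lay above the 6 h tumors (log2 fold change 2.51, SE 1.08, adjusted p = 1 in edgeR). Adipoq, which encodes the fat hormone adiponectin, had 0, 1.6 and 0.646 CPM at 6 h and 0.876, 7.47 and 13.5 CPM at day 3, and these groups overlap. Of the 22 fibroblast and collagen genes, 22 were higher at day 1 than at 6 h (median 0.67, 0 at unadjusted p) and 22 lower at day 3 than at day 1 (median -0.82, 2 at unadjusted p). Col1a1, the main chain of type I collagen, had 741, 1878 and 5102 CPM at 0 h, between 718 and 1754 CPM at 6 h, between 1281 and 2910 CPM at day 1 and between 475 and 1430 CPM at day 3. Its groups overlap at every step.

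**Figure D2:**
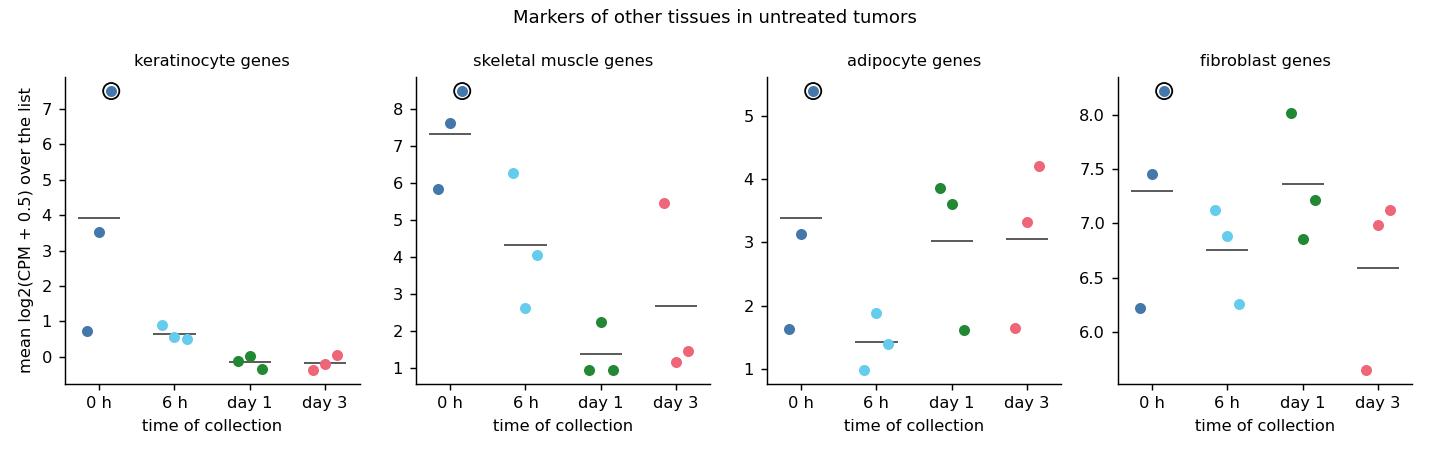
Each point is 1 untreated tumor, placed by time of collection (horizontal) and by the mean log2(CPM + 0.5) over a list of marker genes (vertical, with its own range in each panel), the line is the mean of 3 tumors, and the ring marks 0 h replicate 3. The keratinocyte level of 0 h spans 0.74 to 7.51, while the 9 later tumors lie between -0.37 and 0.91.

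When the levels of the keratinocyte and the muscle list were added to the fit as covariates, a choice made after seeing the data, 323 genes were higher and 304 lower at 6 h than at 0 h, 397 higher and 222 lower at day 1, and 420 higher and 212 lower at day 3, with 0 genes past the adjusted threshold in each. The fit from day 1 to day 3 then held 353 higher and 363 lower genes at unadjusted p. By summed level, both lists were lower in every day 1 tumor than in every 0 h tumor. The covariates thus take up part of the contrast against 0 h itself, for any gene. What part of a gene's change comes from skin or muscle tissue was not tested.

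Genes of the circadian clock were among the lowest p-values of the steps from 6 h to day 1 and from day 1 to day 3. In the step from 6 h to day 3 the first of them, Dbp, ranked 3907. Against 0 h, Npas2 ranked 27 at 6 h and 28 at day 3, and Dbp ranked 54 at day 3. The log2 fold changes of Npas2 were -3.65 and -3.60 there. Its 0 h level was highest in replicate 3, and its ranks without that library are not given here. At day 1 against 0 h the first of them was Hlf, which ranked 406. By unadjusted p, Tef was first of 26848 genes from 6 h to day 1, with Per3 seventh and Nr1d2, Npas2 and Dbp among the first 31. From day 1 to day 3, Dbp was second, Per3 sixth and Tef seventh. RefSeq promoter windows of build GRCm38.p6, each the 250 bases before a start site, were found for 6 of 6 genes looked up (Dbp, Tef, Per3, Nr1d2, Npas2 and Arntl), in 8 windows, and are shown for the 3 that hold a motif of the clock factors, which is in capitals. The motifs searched on both strands were the E-box CACGTG, the D-box TTATGTAA and the core of the ROR element, AGGTCA, and no match overlapped another. The Tef window is its second start, chr15:81811164-81811413 on the plus strand, with an E-box, and its first start also has 1. The Per3 window is chr4:151044666-151044915 on the minus strand, with 2 D-boxes. The Nr1d2 window is chr14:18239107-18239356 on the minus strand, with 1 ROR core.
Tef: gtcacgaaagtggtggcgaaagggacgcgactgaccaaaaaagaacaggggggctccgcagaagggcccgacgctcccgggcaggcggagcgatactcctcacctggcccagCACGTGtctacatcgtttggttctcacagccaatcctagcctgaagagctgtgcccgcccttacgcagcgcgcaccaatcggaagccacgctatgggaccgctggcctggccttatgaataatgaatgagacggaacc
Per3: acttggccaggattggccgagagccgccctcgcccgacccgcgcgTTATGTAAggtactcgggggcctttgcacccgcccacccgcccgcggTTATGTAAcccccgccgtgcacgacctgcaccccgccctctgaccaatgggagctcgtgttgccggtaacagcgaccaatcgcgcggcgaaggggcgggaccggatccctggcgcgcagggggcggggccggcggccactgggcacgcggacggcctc
Nr1d2: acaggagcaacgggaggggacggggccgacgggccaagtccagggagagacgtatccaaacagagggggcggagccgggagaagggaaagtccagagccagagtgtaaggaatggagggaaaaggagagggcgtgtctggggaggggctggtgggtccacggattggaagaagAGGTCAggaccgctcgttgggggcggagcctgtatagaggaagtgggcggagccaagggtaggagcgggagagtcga
The windows of Dbp, Npas2 and Arntl held none of the 3 motifs. Of 32851 windows of this length, 6.02% hold the E-box, 0.819% the D-box and 14% the ROR core, and a match is a description of the letters only.

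Dbp (ENSMUSG00000059824.12, chromosome 7, 45705088 to 45710203), an output factor of the clock that binds D-boxes, had 3.9, 7.57 and 3.61 CPM at 0 h, 9.79, 8.8 and 10.2 CPM at 6 h, 3.67, 3.27 and 6.47 CPM at day 1, and 12.4, 13.3 and 14.3 CPM at day 3. Thus the 0 h and day 1 tumors were low and overlap, the 6 h tumors all lay above both, and the day 3 tumors all lay above the 6 h tumors. The log2 fold change of Dbp was 0.94 at 6 h (SE 0.37, adjusted p = 0.623 in edgeR) and 1.41 at day 3 against 0 h (SE 0.37, adjusted p = 0.368, with a range of 0.0255 to 1 over the alternatives). It was -1.10 from 6 h to day 1 (SE 0.37) and 1.57 from day 1 to day 3 (SE 0.38), with an adjusted p of 1 in edgeR for both. Without 0 h replicate 3, Dbp against 0 h was 0.78 at 6 h and 1.25 at day 3.

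Tef (ENSMUSG00000022389.15, chromosome 15, 81802421 to 81826863), a relative of Dbp, had 72.6, 53.8 and 50.2 CPM at 0 h, 72.5, 67.2 and 84.5 CPM at 6 h, 39.1, 48.5 and 46.2 CPM at day 1, and 72.9, 62.4 and 64 CPM at day 3. The day 1 tumors lay below those of every other time. Its log2 fold change was -0.74 from 6 h to day 1 (SE 0.17, adjusted p = 1 in edgeR, 0.021 in DESeq2 and 0.021 to 1 over the alternatives) and 0.57 from day 1 to day 3 (SE 0.17, adjusted p = 1). Leaving out 1 library at a time moved the first of these from -0.83 to -0.65.

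Per3 (chromosome 4, 151003652 to 151044665), a member of the period repressor family, had 7.73, 5.78 and 9.46 CPM at 0 h, 14.2, 8.37 and 9.98 CPM at 6 h, 6.33, 4.89 and 5.01 CPM at day 1, and 11.8, 10.2 and 10.4 CPM at day 3. The day 1 tumors lay below those of 6 h and of day 3, with log2 fold changes of -1.002 (SE 0.28) and 0.999 (SE 0.28). Nr1d2, which encodes the repressor REV-ERBβ, had between 22.8 and 29.4 CPM at 0 h, 24.3, 36 and 24.4 CPM at 6 h, 15.6, 22.3 and 18.5 CPM at day 1, and 28.1, 25.4 and 21.8 CPM at day 3. Its day 1 tumors lay below the 6 h tumors (log2 fold change -0.59, SE 0.18) and overlap with day 3. All adjusted p-values of these 2 genes in these steps were 1 in edgeR.

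The activator genes Npas2 and Arntl ran the other way. Npas2 (chromosome 1, 39193731 to 39363236), a partner of BMAL1, had 0.826, 3.92 and 13.5 CPM at 0 h, 0.314, 0.542 and 0.59 CPM at 6 h, 5.66, 2.13 and 1.6 CPM at day 1, and 0.0751, 0.381 and 1.05 CPM at day 3. The day 1 tumors lay above those of 6 h and of day 3, with log2 fold changes of 2.69 (SE 0.87) and -2.64 (SE 0.87). Arntl, which encodes BMAL1 itself, had 20.9, 20.2 and 29.6 CPM at 0 h, 20.9, 19.6 and 13 CPM at 6 h, 28.1, 19.5 and 24.1 CPM at day 1, and 16.1, 16.1 and 11.8 CPM at day 3. It was lower in each day 3 tumor than in each day 1 tumor (log2 fold change -0.71, SE 0.25), and the 6 h and day 1 tumors overlap. The adjusted p-values were 1 in edgeR.

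Over the 13 genes of the list driven by E-boxes and D-boxes, the median was 0.34 at 6 h against 0 h, -0.35 from 6 h to day 1 with 4 lower at unadjusted p, and 0.42 from day 1 to day 3 with 4 higher. Over the 6 activators and night-phase genes it was -0.27, 0.35 and -0.53. Hlf, of the same family as Dbp and Tef, had log2 fold changes of -0.98 at 6 h and -1.42 at day 1 against 0 h. For Hlf it was -0.45 from 6 h to day 1 and 0.68 from day 1 to day 3. Nr1d1 (-0.53) and Cry2 (-0.24) were also lower at 6 h than at 0 h, and the rest of the list was higher. The other repressor genes were less even. Per1 had 75.9 to 128 CPM at 0 h, 97.1 to 172 CPM at 6 h, 108 to 157 CPM at day 1 and 93.4 to 142 CPM at day 3, and Per2 at most 7.24 CPM, and both overlap at every step. Nr1d1, which encodes REV-ERBα, had 51.3, 48.5 and 48.4 CPM at 6 h, 37.2, 26.8 and 42.3 CPM at day 1 and 59.3, 69 and 51.7 CPM at day 3, with day 1 below both, but 0 h replicate 3 had 126 CPM.

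**Figure D3:**
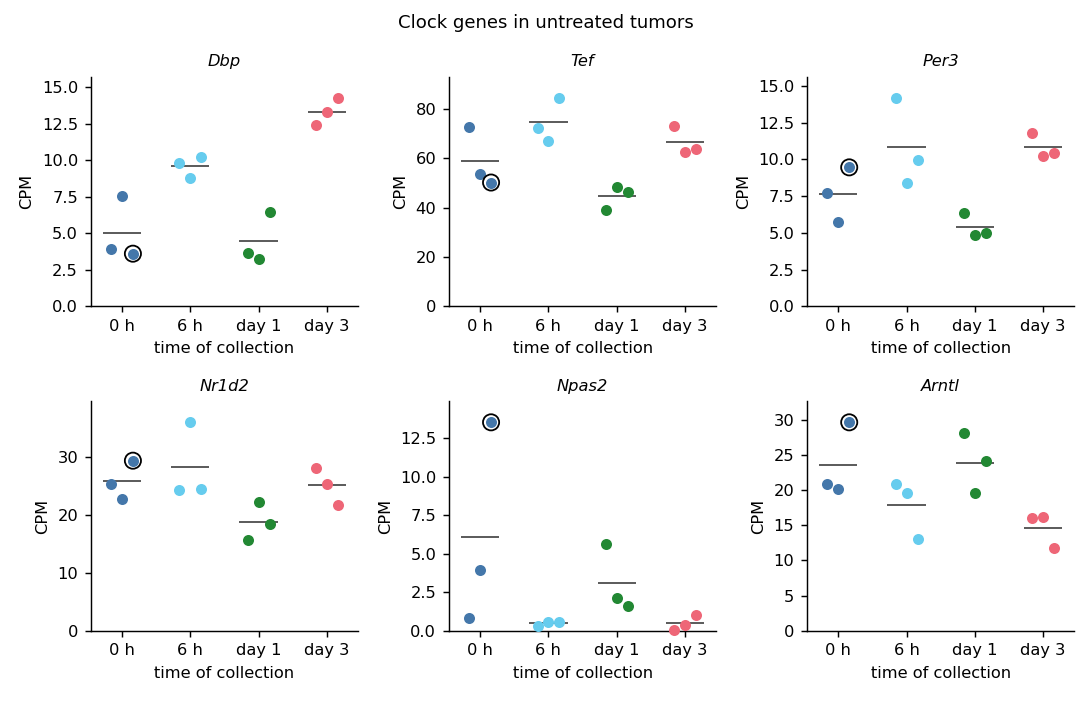
Each point is the CPM (vertical axis from 0, with its own range in each panel) of a clock gene in 1 untreated tumor at its time of collection (horizontal), the line is the mean of 3 tumors, and the ring marks 0 h replicate 3. Dbp, Tef and Per3 are lower at day 1 than at 6 h and day 3, with no overlap, and Npas2 is higher. Lack of overlap was a condition for naming genes by comparison. Each of these genes was so named in at least 1 of these steps, so their separation there is not itself a result.

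The same steps in the treated tumors, which share no tumor with the untreated steps, were averaged over IgG and anti-PD-1, a contrast chosen after seeing the data. From 6 h to day 1, the log2 fold change was 2.80 for Npas2 (SE 0.62, adjusted p = 0.218 in edgeR), -0.46 for Tef (SE 0.12, adjusted p = 0.218), -0.43 for Per3 (SE 0.20, adjusted p = 0.316), -0.30 for Nr1d2 (SE 0.13, adjusted p = 0.287), -0.44 for Dbp (SE 0.26, adjusted p = 0.436) and 0.47 for Arntl (SE 0.17, adjusted p = 0.241). From day 1 to day 3, it was -2.50 for Npas2 (SE 0.61), 0.43 for Tef (SE 0.12), 0.62 for Dbp (SE 0.26) and -0.41 for Arntl (SE 0.17), with an adjusted p of 0.438 in edgeR for each. In that step it was 0.36 for Per3 and 0.20 for Nr1d2, with adjusted p-values of 0.453 and 0.50 in edgeR. Other clock genes did not have the sign of the untreated step in the treated tumors. Nr1d1 was -0.48 from 6 h to day 1 and 0.76 from day 1 to day 3 in untreated tumors, and 0.26 and -0.00 in treated ones. Per1 from day 1 to day 3 was -0.28 in untreated and 0.19 in treated tumors, Bhlhe40 was -0.24 and 0.25, and Cry2 was 0.19 and -0.00. None passed the adjusted threshold.

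Hypoxia genes were highest at day 1, in 2 of its 3 tumors. Vegfa, the vessel growth factor, had 191, 298 and 181 CPM at 0 h, 603, 290 and 252 CPM at 6 h, 827, 328 and 777 CPM at day 1, and 267, 299 and 384 CPM at day 3. Day 1 replicates 1 and 6 stood above the rest and replicate 3 lay near the other times, and the log2 fold change at day 1 against 0 h was 1.53 (SE 0.52, adjusted p = 0.497 in edgeR), 1.45 without 0 h replicate 3 and 0.34 with the keratinocyte and muscle covariates. Egln3, an oxygen sensor that is itself a HIF target, had 62.6, 18.7 and 63.1 CPM at day 1 and 14.8, 15.5 and 16.3 CPM at day 3, with no overlap (log2 fold change -1.63, SE 0.57, adjusted p = 1). Of the 23 hypoxia genes, 22 were higher at day 1 than at 0 h, with a median of 0.89 beside -0.04 over all genes and 16 at unadjusted p, a background of 2.58%. Without 0 h replicate 3, the median was 0.82 with 4 such genes. With the keratinocyte and muscle covariates, which take up part of this contrast itself, it was 0.04 with 0. From day 1 to day 3 all 23 were lower (median -0.51, 2 at unadjusted p). Slc2a1, the glucose carrier GLUT1, had 234, 111 and 176 CPM at day 1 against 95.3, 107 and 42.9 CPM at 0 h, and 15 of 16 glycolysis enzymes were higher at day 1 than at 0 h (median 0.47, 4 at unadjusted p). Leaving out 0 h replicate 3 gave 12 of 16, with a median of 0.34 and 0 at unadjusted p, and with the covariates 7 of 16, with a median of -0.02.

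Single early response and stress genes were also higher after 0 h. Fos, an immediate early gene of the AP-1 complex, had 7.04, 8.16 and 7.48 CPM at 0 h, 24.6, 13.6 and 9.24 CPM at 6 h, 19.7, 12.5 and 18.9 CPM at day 1, and 8.36, 9.63 and 12.5 CPM at day 3. Every later tumor lay above the 0 h tumors, with a log2 fold change of 1.06 at 6 h (SE 0.37, adjusted p = 0.554 in edgeR) and 1.17 at day 1 (SE 0.37, adjusted p = 0.431). Ier3, an early response gene with a role in survival, had 22.5 to 49 CPM at 0 h and 136, 63.4 and 127 CPM at day 1 (log2 fold change 1.59, SE 0.47, adjusted p = 0.411 in edgeR, with a range of 0.00104 to 1 over the alternatives). Ddit3, which encodes the stress factor CHOP, had 12.4 to 22.9 CPM at 0 h and 42.2, 25.1 and 38.2 CPM at day 1 (log2 fold change 1.02, SE 0.33, adjusted p = 0.441). These day 1 values were 0.54 for Fos, 0.59 for Ier3 and 0.37 for Ddit3 with the keratinocyte and muscle covariates. Those covariates take up part of this contrast itself. Without 0 h replicate 3 the day 1 values were 1.22, 1.40 and 0.88. Day 1 replicates 1 and 6, the tumors with the highest hypoxia levels, were also the highest for Ier3 and Ddit3. Over all 25 immediate early genes the median at day 1 was 0.10, with 4 higher and 1 lower at unadjusted p, and 0.40 with 2 higher without 0 h replicate 3. At day 3 it was -0.18 against 0 h, with 6 lower.

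Most cholesterol synthesis genes and genes of mitochondrial DNA had lower values at day 1 than at 6 h, few of the former at unadjusted p. Hmgcs1, an early enzyme of the sterol pathway, had 151, 78.6 and 80.9 CPM at 0 h, 60.8, 132 and 149 CPM at 6 h, 49.3, 86.5 and 42.6 CPM at day 1, and 154, 121 and 95.6 CPM at day 3. The day 3 tumors all lay above the day 1 tumors (log2 fold change 1.06, SE 0.41, adjusted p = 1 in edgeR), and 6 h overlaps with day 1 through replicate 1. Of the 20 cholesterol genes, 20 were lower at day 1 than at 6 h (median -0.74, 2 at unadjusted p beside 1.05% of all genes) and 19 higher at day 3 than at day 1 (median 0.72, 3 at unadjusted p beside 1.17%). The list level was 5.13, 6.01 and 5.18 at day 1 and 5.46, 6.38 and 6.57 at 6 h, which overlap, and 0 h replicate 3, at 4.97, lay below every day 1 tumor. Of the 13 protein genes of mitochondrial DNA, 12 were lower at day 1 than at 6 h, with a median of -0.82 and 8 at unadjusted p. Among them mt-Co1, a subunit of cytochrome oxidase, had 13180, 19401 and 20845 CPM at 6 h and 10405, 14474 and 9432 CPM at day 1, and these overlap (log2 fold change -0.64, SE 0.25, adjusted p = 1). Leaving out 1 library at a time moved that median between -1.05 and -0.66.

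Other genes of growing cells shifted little. From 6 h to day 1, 76 of 79 nuclear respiratory chain genes were lower with a median of -0.30 and 2 at unadjusted p, 82 of 83 cytosolic ribosomal protein genes with a median of -0.23 and 0, and 25 of 25 mitotic genes with a median of -0.26 and 0. Of 18 melanocyte and pigment genes, 16 were lower (median -0.28, 1 at unadjusted p), and from day 1 to day 3, 17 were higher (median 0.29, 0 at unadjusted p). Mlana, the melanosome protein MART-1, had 542, 727 and 843 CPM at 6 h, 426, 576 and 410 CPM at day 1 and 811, 659 and 572 CPM at day 3, a log2 fold change of -0.58 from 6 h to day 1 (SE 0.27, adjusted p = 1 in edgeR). Its 6 h and day 1 tumors overlap. In the same step the fibroblast genes above were higher in 22 of 22, and macrophage markers in 18 of 19 with a median of 0.48, and the part of the makeup of the tumors in these lists was not tested.

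Interferon genes were, by list median, lower at 6 h than at 0 h and higher at day 3 than at 6 h. Iigp1, an IFN-γ-induced GTPase, had 77.4, 104 and 95.2 CPM at 0 h, 54.5, 23.8 and 24.6 CPM at 6 h, 74.1, 84.1 and 22 CPM at day 1, and 163, 203 and 94.3 CPM at day 3. The 6 h tumors lay below all 0 h tumors and the day 3 tumors above all 6 h and day 1 tumors, with a log2 fold change of 2.16 from 6 h to day 3 (SE 1.12, adjusted p = 1 in edgeR). Ifit3b, a type I interferon effector, had 3.11, 1.27 and 2.36 CPM at 6 h and 6.16, 11.5 and 4.23 CPM at day 3 (log2 fold change 1.70, SE 0.67, adjusted p = 1). Irf1 had 41.2, 23.1 and 19.7 CPM at 6 h and 59.3, 64.6 and 35.2 CPM at day 3, and Cd274, which encodes PD-L1, 19.4, 10.7 and 15.5 CPM at 6 h and 28.5, 28.9 and 18.2 CPM at day 3. Both genes overlap between these times.

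Among the IFN-γ response genes, of which 36 were tested, 34 were lower at 6 h than at 0 h (median -0.62) and 34 higher at day 3 than at 6 h (median 0.75), and 33 were higher at day 3 than at day 1 (median 0.54). None of the 36 had an unadjusted p under 0.05 in any of these 3 steps. Without 0 h replicate 3 the first median was -0.49. Of 39 type I interferon-stimulated genes, 39 were lower at 6 h (median -0.27, 0 at unadjusted p, and 33 lower with a median of -0.21 without 0 h replicate 3) and 36 higher at day 3 than at 6 h (median 0.45, 2 at unadjusted p beside 2.01%). The list level of IFN-γ genes was 5.11, 4.32 and 4.41 at 6 h and 5.63, 5.89 and 5.07 at day 3, so 6 h replicate 1 and day 3 replicate 4 overlap. Ifng itself had at most 0.802 CPM in any tumor, with 0 counts in 5 of 12, and Ifnb1 had 0 counts in all 12 and was not detectable at this depth. The 30 T and NK cell markers had medians of -0.99 at 6 h, -0.76 at day 1 and -0.31 at day 3 against 0 h, with 1, 0 and 0 lower at unadjusted p, and a summed level of 33.2 to 148 CPM at 0 h, 33.7 to 98.6 CPM at 6 h, 46.2 to 94 CPM at day 1 and 58.2 to 94.7 CPM at day 3. The medians were -0.77, -0.46 and -0.25 without 0 h replicate 3. Nos2, which encodes iNOS, had 0.826, 1.56 and 0.695 CPM at 0 h, 2.07, 1.98 and 1.24 CPM at 6 h, 2.53, 4.07 and 0.734 CPM at day 1, and 1.7, 2.49 and 3.31 CPM at day 3. The day 3 tumors lay above the 0 h tumors (log2 fold change 1.28, SE 0.87, adjusted p = 0.803 in edgeR).

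**Figure D4:**
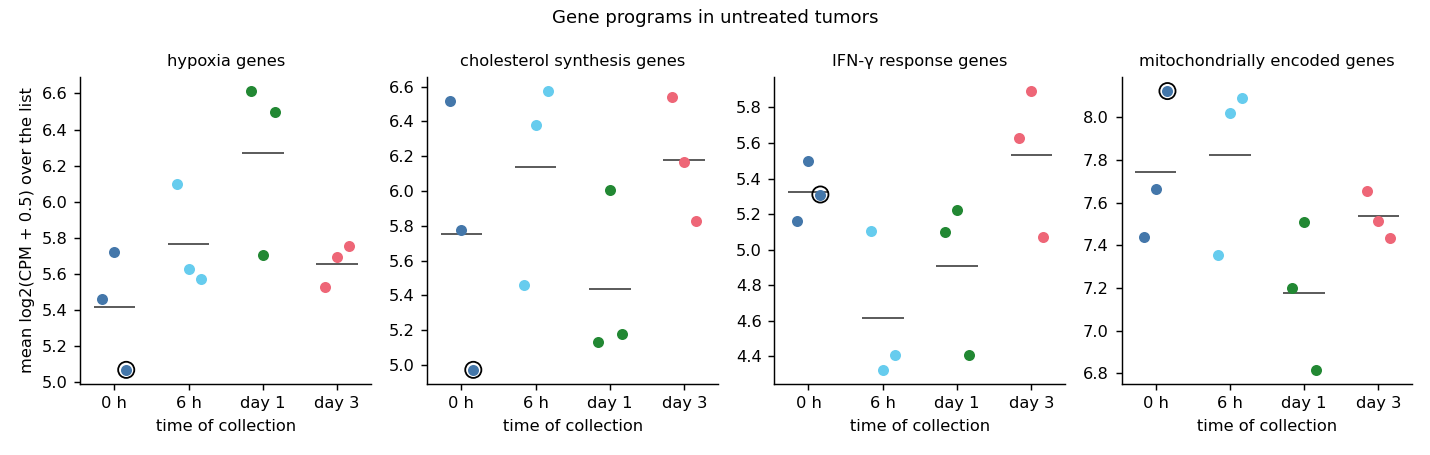
Each point is 1 untreated tumor, placed by time of collection (horizontal) and by the mean log2(CPM + 0.5) over a gene list (vertical, with its own range in each panel), the line is the mean of 3 tumors, and the ring marks 0 h replicate 3. Hypoxia genes reach 6.61 and 6.50 in 2 day 1 tumors, and IFN-γ response genes lie between 4.32 and 5.11 at 6 h and between 5.07 and 5.89 at day 3.

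Several single genes outside these lists were named because their groups do not overlap in a step, so that separation is not itself a result. The same holds for genes of the lists above that were named by comparison. Among them were Tef, Per3, Nr1d2 and Npas2 from 6 h to day 1. Others were Dbp, Tef, Per3 and Npas2 from day 1 to day 3, Fos at 6 h and Ier3 at day 1. The share of all genes that separate in this way is not given here. Samd11, a transcriptional regulator known from photoreceptors, had between 1.1 and 1.94 CPM in all tumors up to day 1 and 0.476, 0.305 and 0.276 CPM at day 3, below every earlier tumor. Its log2 fold change from day 1 to day 3 was -2.27 (SE 0.63, adjusted p = 1 in edgeR, with a range of 0.311 to 1 over the alternatives). Creb3l1, a factor of the secretory pathway in collagen-producing cells, had 38.8, 23.9 and 25.4 CPM at 6 h, 85.3, 42.2 and 62.5 CPM at day 1, and 19.5, 34.3 and 29.9 CPM at day 3, with day 1 above both (log2 fold changes 1.11, SE 0.38, and -1.18, SE 0.38, adjusted p = 1 for each).

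Mrpl48, of the mitochondrial ribosome, had 23.5, 28.9 and 31.5 CPM at 6 h against 19.6, 19.9 and 16.8 CPM at day 1, with no overlap. Against 0 h, Sspo had 1.33, 1.21 and 0.908 CPM at 0 h and 3.8, 6.94 and 3.28 CPM at day 1 (log2 fold change 2.02, SE 0.50, adjusted p = 0.411 in edgeR, with a range of 0.0111 to 1 over the alternatives). The splicing kinase gene Clk4 had 52.9 to 67.7 CPM at 0 h and 86.6, 92.7 and 99.4 CPM at day 1 (log2 fold change 0.68, SE 0.19, adjusted p = 0.411). S100a1, a calcium-binding protein gene that melanoma cells express, had 49.8, 53.2 and 38.7 CPM at 0 h and 72.6, 69.7 and 59.9 CPM at day 3 (log2 fold change 0.51, SE 0.16, adjusted p = 0.429, with a range of 0.0257 to 1 over the alternatives). Cep126, of the centrosome, had 11.9, 7.72 and 6.09 CPM at 0 h and 13.4, 12.5 and 14 CPM at 6 h (log2 fold change 0.63, SE 0.20, adjusted p = 0.484 in edgeR, with a range of 0.0327 to 1 over the alternatives), and the value was 0.47 without 0 h replicate 3.

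Whether the change from 6 h to day 3 differed between untreated and treated tumors was tested as an interaction. In edgeR, 0 genes (0%) passed the adjusted threshold against IgG and 0 against anti-PD-1, with 1247 and 1125 genes at an unadjusted p under 0.05, and DESeq2 called 11 and 22, of which 11 and 20 had log2 fold changes beyond 10. For IFN-γ response genes the median difference was 0.77 against IgG, with 33 of 36 more positive in untreated tumors and 1 at unadjusted p, and 0.92 against anti-PD-1, with 34 of 36 and 0 at unadjusted p. Over all genes the medians were 0.09 and -0.00. The 516 sensory receptor genes tested, used here as a measure of background, had median differences of 3.41 and 2.33 in the same contrasts. In the untreated tumors their summed level over all members ran from 15.4 to 251 CPM, with 27.4, 121 and 251 CPM at day 3 and 15.4, 79.4 and 54.7 CPM at 6 h, and at day 3 against 6 h 48 of the 516 were higher at unadjusted p beside 2.01% of all genes. The part of this background in the differences of other low genes was not tested.

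**Figure D5:**
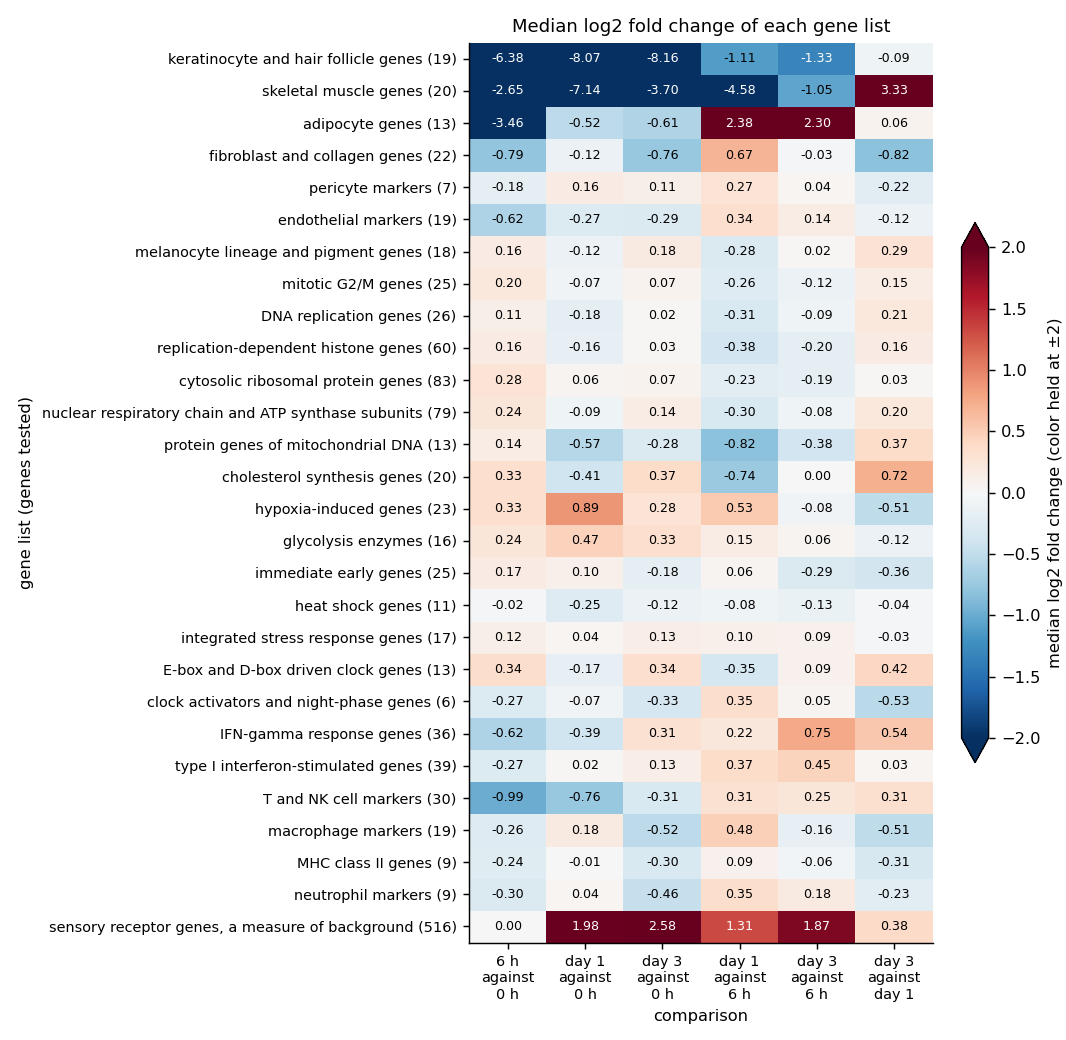
Rows are gene lists with the number of genes tested, columns are the 6 comparisons of untreated tumors, and each cell gives the median log2 fold change in edgeR, with color held at ±2. The largest negative medians, down to -8.16, are those of keratinocyte genes against 0 h and of muscle genes at day 1 against 0 h. Hypoxia genes reach 0.89 at day 1 against 0 h.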

How the data were processed

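Total RNA of fresh tumor tissue, 1 tumor a mouse, was made into strand-specific libraries. The authors trimmed reads with cutadapt 1.8.1, aligned them to mm10 with STAR 2.7.7a and, per the methods, counted them with RSEM 1.3.0. The deposited values are whole-number counts per gene in a table whose name refers to another counter, so which tool made them is unsettled. All 55450 gene identifiers were in GENCODE vM21.

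The counts of 30 libraries in 10 groups were fitted together with edgeR 4.0.16 in R 4.3.3 (TMM, filterByExpr with a minimum count of 10, quasi-likelihood test, 20 residual degrees of freedom), leaving 26848 genes. P-values were two-sided and adjusted by Benjamini-Hochberg over all of them, and those under 0.05 were called. Tumors of a group varied with a common coefficient of 0.671. DESeq2 1.42.0, which the study names, no filter, DESeq2 size factors, only the untreated libraries, a sensory receptor covariate and the replicate block were alternatives. So was leaving out in turn each library other than those of IgG and anti-PD-1 at day 1. Fits with a library left out were filtered anew. Keratinocyte and muscle covariates and the averages over treated arms were added after seeing the data. The fit was also run on simulated counts with planted changes, a capped spread between tumors and no outlying library. That run does not show how the fit behaves for a group such as 0 h.

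Groups came from the sample titles. Replicates were separate libraries and differed beyond sampling noise, with a chi-square per gene of 16.3 to 390. Replicate numbers did not pair tumors. Over 11 same-numbered pairs the correlation of deviations ran from -0.379 to 0.415, and 1 was over 0.1. List levels are means of log2(CPM + 0.5).

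The comparisons and gene lists were chosen with earlier results of these data known. Named were, for each comparison, the up to 5 protein-coding genes a direction with the lowest unadjusted p among those whose groups do not overlap and whose mean was at least 1 CPM, for each list the 2 highest members and the 2 with the lowest p of any change, and a set of marker genes. For the genes named by comparison, the lack of overlap in that comparison was thus set by the choice. The muscle genes given for counts of 0 (Pvalb, Tnni2, Myl1 and Tnnc2) were chosen after their values were seen.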

Additional observations from a re-analysis of the deposited data

How the results depend on the processing

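Of the values under the alternatives, 1261 log2 fold changes of named genes kept their direction and side of the threshold, 45 gained it and 5 changed sign. With the keratinocyte and muscle covariates, added after seeing the data, the log2 fold change of Krt14 at day 3 against 0 h became 0.34, that of Acta1 at day 1 became 1.24, that of Ttn at day 1 became 0.21 and that of Zbtb16 at 6 h became 0.22. Krt14, Acta1 and Ttn belong to the lists that form these covariates, so the loss of their differences is built into that fit. For other genes the covariates take up part of the contrast against 0 h. Leaving out 1 library at a time moved Zbtb16 at 6 h from -4.06 to 0.046, the last without 0 h replicate 3.

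edgeR called 0 genes in each of the 9 comparisons. DESeq2 called 261 for any change, 215, 240 and 217 at 6 h, day 1 and day 3 against 0 h, 18 from 6 h to day 1, 18 from 6 h to day 3, 9 from day 1 to day 3, and 11 and 22 for the differences from IgG and anti-PD-1. Without a filter, edgeR called 678 for any change, 445, 404 and 397 against 0 h and 15 for the difference from anti-PD-1. The cause was not tested. Leaving out 1 library at a time gave 0 to 304 calls for any change, 0 to 130 at 6 h, 0 to 28 at day 1 and 0 to 60 at day 3 against 0 h. The highest of each came without 0 h replicate 1. Without 0 h replicate 2 there were 110 for any change, without IgG 6 h replicate 1 there were 53 and without anti-PD-1 6 h replicate 1 there was 1. At an unadjusted p, the step from 6 h to day 1 ranged from 274 higher genes (without 6 h replicate 4) to 1319 (without 6 h replicate 1) and from 104 lower (without day 1 replicate 6) to 810 (without 6 h replicate 1). The step from 6 h to day 3 fell to 252 higher without day 3 replicate 4 and 266 without 6 h replicate 4. The step from day 1 to day 3 ranged from 93 higher (without day 1 replicate 6) to 525 (without day 1 replicate 3) and from 173 lower (without day 3 replicate 1) to 673 (without day 1 replicate 3).

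With the replicate block, 0 genes were called in each comparison, and 139 were higher and 744 lower at 6 h at an unadjusted p under 0.05. Of 11 libraries that share a number, 2 were closest to a library of the same number. Of the list medians, 4170 moved by less than the spread between replicates and 276 by more.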
